A study of Mus musculus with 6 samples.

Results

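The immunity-related GTPase (IRG) genes Iigp1, Irgm1, Irgm2, Igtp, Tgtp1 and Tgtp2 were examined in C2C12 cells, a mouse myoblast line, after knockdown of Cnn3, which encodes the actin-binding protein calponin 3. The genes were chosen by name, with earlier results of these data known, and all 6 were found among the 11835 genes of the data. All 6 passed the filter on low values, which asked for a mean of 0.5 FPKM or more, as did 11593 genes in all, and the siNC mean of each of the 6 was also above 0.5 FPKM. For Iigp1, Tgtp1 and Tgtp2 this rests on siNC replicate 2, since the mean of their other 2 siNC libraries was under 0.5 FPKM. RNA was sequenced in 6 libraries, of which 3 came from cells that received NC siRNA, a negative control (siNC), and 3 from cells that received CNN3 siRNA (siCNN3). Both groups were grown in differentiation medium with horse serum and both received an siRNA, and libraries of untransfected cells were not analysed here. The labels call the cells mouse myotube, whereas the study describes differentiating myoblasts, and which CNN3 siRNA was used for sequencing is not stated. Levels are given as FPKM, which are fragments counted relative to transcript length and to all mapped fragments, summed over the transcripts of a gene. The depth is unknown, so no counting error can be given, and the labels do not say whether replicates came from separate cultures, so p-values measure only the spread between these libraries, which may be technical.

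IRG proteins are GTPases that mouse cells make in response to interferon, above all interferon gamma, and that act inside the infected cell. They are best known from mouse cells infected with Toxoplasma or Chlamydia, where they coat the vacuole that holds the microbe and break it. The family is divided by the nucleotide-binding loop of the GTPase domain. The GKS proteins, among them the products of Iigp1 (also called Irga6) and of Tgtp1 and Tgtp2 (Irgb6), are the effectors that load onto the vacuole. The GMS proteins, the products of Irgm1, Irgm2 and Igtp (Irgm3), sit on membranes of the cell and keep the effectors in their inactive, GDP-bound state, so that they do not attack the cell's own organelles. The division into GKS and GMS was taken from this background and not from the data.

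The regions just before the gene starts annotated by RefSeq are shown because 4 of these genes share an arrangement of 2 interferon response motifs there. Promoter sequences of RefSeq for GRCm38.p6, from 250 bases before that start to 50 bases after it, were matched for 5 of the 6 genes. They were searched on both strands for the core of the interferon-stimulated response element (ISRE), GAAANNGAAA, and for the core of the gamma-activated site (GAS), TTCNNNGAA, elements through which interferons act on gene expression. The sequences run from 50 bases before the ISRE core to the base before the RefSeq start, on the strand of the gene, and capitals mark the ISRE and GAS cores. They lie at chr11:48871421-48871500 for Irgm1 (minus strand), chr11:58199472-58199555 for Igtp (plus strand), chr11:58214863-58214976 for Irgm2 (plus strand), chr11:48992247-48992373 for Tgtp1 (minus strand) and chr11:49064213-49064332 for Tgtp2 (minus strand).
Irgm1: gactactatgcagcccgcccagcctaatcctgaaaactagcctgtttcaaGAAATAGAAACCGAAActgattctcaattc
Igtp: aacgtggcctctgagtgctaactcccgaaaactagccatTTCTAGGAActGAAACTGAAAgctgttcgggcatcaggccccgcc
Irgm2: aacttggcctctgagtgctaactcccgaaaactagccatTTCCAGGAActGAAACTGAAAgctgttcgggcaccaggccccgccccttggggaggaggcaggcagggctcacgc
Tgtp1: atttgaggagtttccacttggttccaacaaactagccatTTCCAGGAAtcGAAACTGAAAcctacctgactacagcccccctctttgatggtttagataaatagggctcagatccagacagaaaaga
Tgtp2: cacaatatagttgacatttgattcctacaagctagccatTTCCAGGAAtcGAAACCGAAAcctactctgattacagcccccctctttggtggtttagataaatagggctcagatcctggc

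The ISRE core was found in 5 of 5 of these promoters, compared with 3.44% of the 32851 promoters of the table. The GAS core was found in 4 of 5, compared with 8.30% of all promoters. In Igtp, Irgm2, Tgtp1 and Tgtp2 the GAS core began 11 bases before the ISRE core, and this spacing, which was noticed in these sequences and then counted, occurred in 5 of the 32851 promoters. The fifth was that of Gm12185, a further IRG gene. The printed sequences of Igtp and Irgm2 are closely alike, as are those of Tgtp1 and Tgtp2, so these matches are not independent of each other. Irgm1 had 2 overlapping ISRE cores and no match to the GAS core in this window. The RefSeq starts of Irgm1, Irgm2 and Tgtp1 lie inside the wider GENCODE gene ranges given below, and the region of Irgm2 precedes its 2 minor transcripts and not its main one. A match is a description of letters, and binding was not measured. Of the further IRG genes described below, 6 had a promoter in the table, and 3 of these had the ISRE core and 2 the GAS core. The interferon-inducible guanylate-binding proteins with Mx and Gvin had the ISRE core in 5 of the 5 genes with a promoter in the table and the GAS core in 2 of them.

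Knockdown was first examined in Cnn3 itself. Its level was 62.8, 61.4 and 62.8 FPKM in siNC replicates 1 to 3, and 19.0, 39.2 and 25.6 FPKM in siCNN3 replicates 1 to 3. The groups did not overlap, and the siCNN3 mean was 44.8% of the siNC mean, with a log2 fold change of -1.19 ± 0.24 (SE) that did not pass the threshold (limma, adjusted p = 0.0669).

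All 6 IRG genes were higher in each siCNN3 library than in any siNC library, and 3 of the 6, the GKS genes Iigp1, Tgtp1 and Tgtp2, passed the test (limma on log2(FPKM + 1), Benjamini-Hochberg adjusted p under 0.05 over all genes tested). Of all tested genes, 1.73% were called higher, 0.336% were called lower and 13.8% had every siCNN3 library above every siNC library. The median log2 fold change of the 6 genes was 4.61, compared with 0.03 for all tested genes. A pseudocount of 1 was added before the log, which understates the change of genes that were low in siNC. An exact permutation test of 3 libraries against 3 gave p = 0.1 for each gene, the smallest value it can give. The count of 3 depends on which libraries are kept, since it was 0 without replicate 1 or 3 of siNC or replicate 1 or 2 of siCNN3, 4 without siNC replicate 2 and 5 without siCNN3 replicate 3. The calls over all genes moved as well, from 200 higher with all libraries to 70 and 16 without replicates 1 and 3 of siNC, 39 and 29 without replicates 1 and 2 of siCNN3, 151 without siNC replicate 2 and 444 (3.83%) without siCNN3 replicate 3.

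**Figure D1:**
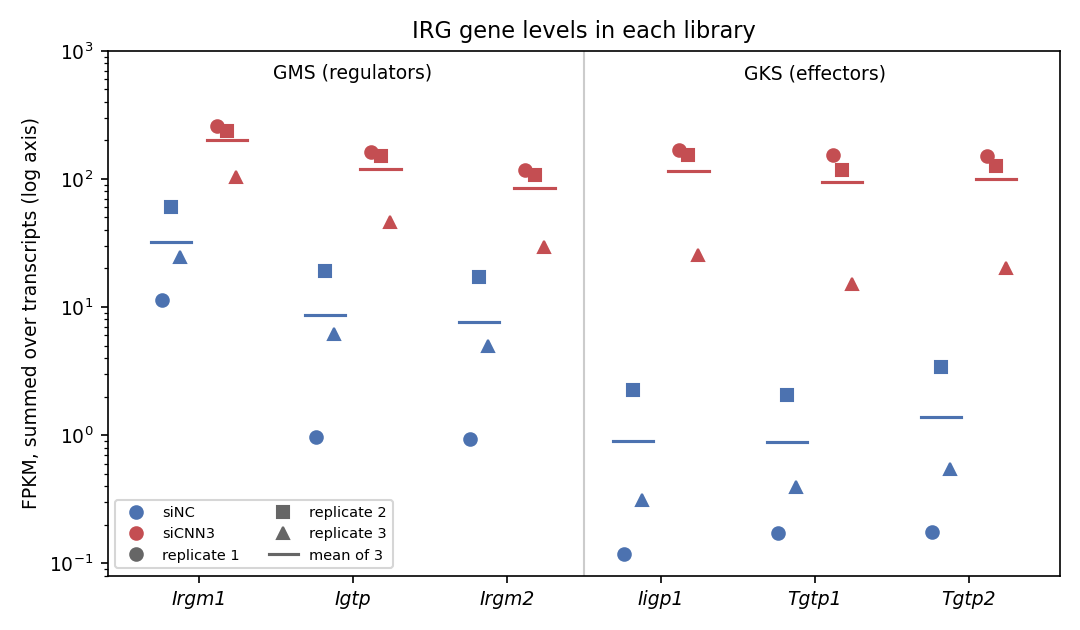
Level of each IRG gene (FPKM summed over transcripts, log axis) in the 3 siNC (blue) and 3 siCNN3 (red) libraries, with marker shapes for replicate numbers and bars for the mean of 3. In every gene the 3 siCNN3 libraries lie above the 3 siNC libraries, and the GKS genes start from siNC means between 0.878 and 1.38 FPKM whereas the GMS genes start from siNC means between 7.67 and 32.3 FPKM.

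Among the GMS genes, Irgm1, whose product guards the membranes of the cell against the effector GTPases and is needed for resistance to several intracellular bacteria, had the highest level in all 6 libraries. It measured 11.4, 60.9 and 24.6 FPKM in siNC replicates 1 to 3, and 261, 235 and 103 FPKM in siCNN3 replicates 1 to 3. The siNC libraries spread over a wide range, yet the lowest siCNN3 library was 1.69 times the highest siNC library. The siNC mean was 32.3 ± 25.6 FPKM and the siCNN3 mean 199 ± 84.8 FPKM (SD, n = 3 each). The log2 fold change was 2.78 ± 0.61 (SE), which did not pass the threshold (limma, adjusted p = 0.0805). It passed without siNC replicate 2 (adjusted p = 0.0371) or siCNN3 replicate 3 (adjusted p = 0.0486). Irgm1 lies on the minus strand of chromosome 11 (GRCm38, 48861968 to 48871683).

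Igtp, a GMS gene whose product is found at the endoplasmic reticulum and on lipid droplets, was at 0.963, 19.0 and 6.16 FPKM in siNC, against 162, 150.3 and 46.2 FPKM in siCNN3. Its siNC replicate 1 was close to 1 FPKM, and its lowest siCNN3 library was 2.43 times the highest siNC library. The log2 fold change was 4.005 ± 0.87 (SE) and did not pass the threshold (limma, adjusted p = 0.0774), although it did without siNC replicate 2 (adjusted p = 0.0418) or siCNN3 replicate 3 (adjusted p = 0.0493). Irgm2, whose product is found at the Golgi apparatus, was at 0.934, 17.2 and 4.93 FPKM in siNC, against 118, 107 and 29.4 FPKM in siCNN3. The lowest siCNN3 library was 1.71 times the highest siNC library, as narrow a gap as that of Irgm1. Its log2 fold change was 3.63 ± 0.87 (SE, limma, adjusted p = 0.0973), and it did not pass in any of 16 alternative fits. The annotated ranges of the 2 genes overlap on the plus strand of chromosome 11 (GRCm38, Igtp 58199556 to 58207591, Irgm2 58199618 to 58222782).

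The GKS gene Iigp1, on chromosome 18, encodes one of the most studied effector GTPases of the family. In the main fit it showed the largest log2 fold change of the 6. It was at 0.117, 2.25 and 0.313 FPKM in siNC, against 168, 155 and 25.4 FPKM in siCNN3. It was thus under 0.5 FPKM in siNC replicates 1 and 3 but not in replicate 2, and the lowest siCNN3 library was 11.3 times the highest siNC library. The log2 fold change was 5.72 ± 0.77 (SE), and Iigp1 was called higher (limma, adjusted p = 0.0199). The call was lost without siNC replicate 1 (adjusted p = 0.0812), siNC replicate 3 (0.105), siCNN3 replicate 1 (0.0783) or siCNN3 replicate 2 (0.0837), while the log2 fold change stayed between 5.25 and 6.59.

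Tgtp1 and Tgtp2, near-identical GKS genes that encode the effector Irgb6, were also called higher. Tgtp1 was at 0.174, 2.07 and 0.395 FPKM in siNC, against 153, 117 and 15.03 FPKM in siCNN3, with a log2 fold change of 5.28 ± 0.86 (SE, limma, adjusted p = 0.0348). Tgtp2 was at 0.174, 3.41 and 0.542 FPKM in siNC, against 152, 125 and 20.002 FPKM in siCNN3, with a log2 fold change of 5.21 ± 0.83 (SE, limma, adjusted p = 0.0332). In both genes the groups were well apart, with the lowest siCNN3 library 7.27 times the highest siNC library for Tgtp1 and 5.86 times for Tgtp2. Tgtp1 was called in 1 of the 6 fits that left out a library, the one without siCNN3 replicate 3, and its adjusted p was between 0.0567 and 0.159 in the others. Tgtp2 was called without siNC replicate 2 or siCNN3 replicate 3, with an adjusted p of up to 0.151 in the others. Both lie on the minus strand of chromosome 11 (GRCm38, Tgtp1 48985327 to 48994172, Tgtp2 49057194 to 49064206).

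How far the 2 genes can be told apart was examined in their annotated sequence, after their values had been seen. Of all stretches of 50 bases in the main transcript of Tgtp1, 91.4% occurred unchanged in a transcript of another gene, and 90.6% did in that of Tgtp2. The share was 12.3% for Igtp, 8.10% for Irgm2, 3.09% for Iigp1 and 0.885% for Irgm1. The division of FPKM between Tgtp1 and Tgtp2 is therefore uncertain, and their sum was tested as a single feature, which had a log2 fold change of 5.76 ± 0.92 (SE) and was called higher (limma, adjusted p = 0.0331).

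**Figure D2:**
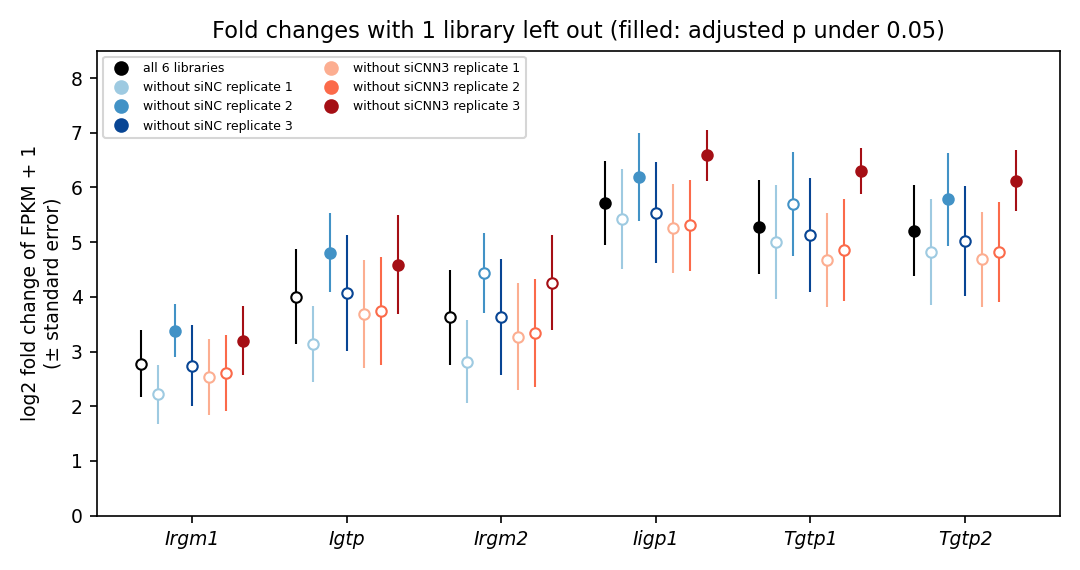
Log2 fold change of FPKM + 1, siCNN3 against siNC, for each IRG gene with all 6 libraries (black) and with 1 library left out (blue for siNC, red for siCNN3), with bars for the standard error and filled symbols where the adjusted p was under 0.05. All fold changes stay above 0, and without siCNN3 replicate 3 the test passed for 5 of the 6 genes.

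The libraries of a group were ordered alike in the 6 genes. In siNC, replicate 2 was the highest and replicate 1 the lowest for 6 of 6 genes, with replicate 2 between 5.34 and 19.8 times replicate 1. In siCNN3, replicate 1 was the highest and replicate 3 the lowest for 6 of 6 genes, with replicate 1 between 2.54 and 10.2 times replicate 3. Summed over the 6 genes, the level was 13.8, 104.8 and 37.0 FPKM in siNC replicates 1 to 3 and 1013.5, 890.2 and 238.6 FPKM in siCNN3 replicates 1 to 3. In the same siCNN3 replicates the Cnn3 level given above was 19.0, 39.2 and 25.6 FPKM, so that the library with the most IRG transcript had the least Cnn3, while the one with the least IRG transcript had the middle level. The part of this variation in the difference between groups was not tested.

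The make-up of the family was compared between the groups after the values had been seen. The GMS genes held 96.6%, 92.6% and 96.6% of the summed FPKM of the 6 genes in siNC replicates 1 to 3, and 53.4%, 55.3% and 74.7% in siCNN3 replicates 1 to 3. Irgm1 alone held between 58.1% and 82.8% in siNC and between 25.7% and 43.0% in siCNN3. Thus transcripts of the regulators made up nearly all of the small amount in siNC, and those of the effectors made up a larger share in each siCNN3 library than in any siNC library.

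The 9 ratios of a GKS gene to a GMS gene within a library were then compared, since a ratio does not depend on the scaling of that library. Each of the 9 was higher in every siCNN3 library than in any siNC library. The ratio of Iigp1 to Irgm1 was 0.0103, 0.0370 and 0.0127 in siNC and 0.643, 0.660 and 0.247 in siCNN3, the largest of these differences at 4.80 on the log2 scale. The smallest, of Tgtp2 to Igtp, was 2.30, from ratios of 0.181, 0.179 and 0.0880 in siNC to 0.936, 0.835 and 0.433 in siCNN3. An exact two-sided permutation test gave p = 0.1 for each ratio, also after Benjamini-Hochberg adjustment over the 9, which is the smallest value it can give. The separation depends on how low values are treated, since with 1 FPKM added to both genes only 5 of the 9 ratios kept the groups apart and the differences were between 1.21 and 2.93.

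**Figure D3:**
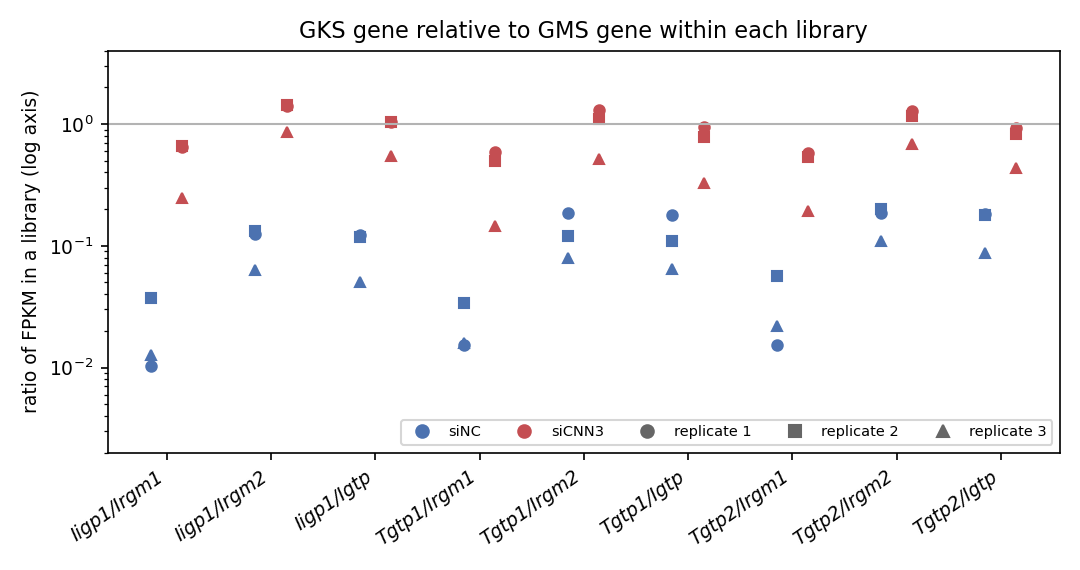
Ratio of the FPKM of each GKS gene to that of each GMS gene within a library (log axis), for the 3 siNC (blue) and 3 siCNN3 (red) libraries, with marker shapes for replicate numbers and a line at equal levels. All 9 ratios are higher in the 3 siCNN3 libraries than in the 3 siNC libraries.

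In the order of mean levels, siNC had Irgm1 first, followed by Igtp, Irgm2, Tgtp2, Iigp1 and Tgtp1. In siCNN3 the order was Irgm1, Igtp, Iigp1, Tgtp2, Tgtp1 and Irgm2. The ranges of neighbours over the libraries overlapped in both orders. Within siNC libraries, each gene was nonetheless above the next in 3 of 3, except Iigp1, which was above Tgtp1 in 1 of 3. Within siCNN3 libraries, Irgm1 was above Igtp and Iigp1 above Tgtp2 in 3 of 3. The other siCNN3 neighbours kept their order in 1 or 2 of 3. Iigp1 was below Igtp in 3 of 3 siNC libraries and above it in siCNN3 replicates 1 and 2.

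The 6 genes were listed with 13 transcripts, of which 12 had every siCNN3 library above every siNC library, compared with 10.4% of the 21658 transcripts tested. Some of the 12 passed the filter only through siCNN3, their siNC means being under 0.5 FPKM, so the count is no support for a direction. They were the main transcript of Iigp1 (siNC mean 0.292 FPKM), a transcript of Irgm2 (0.350 FPKM) and minor transcripts of Igtp and Tgtp1 (0 FPKM). When each transcript was tested on its own, 1 of the 13 was called, the longer transcript of Iigp1 (limma, adjusted p = 0.0384), compared with 0.462% of all transcripts called higher. Irgm1 was divided between 2 transcripts in both groups, with the same one holding 62.7% of its mean FPKM in siNC and 52.9% in siCNN3. The exception to the separation was a minor transcript of Igtp, at 0, 2.69 and 0.911 FPKM in siNC, against 7.61, 5.11 and 1.79 FPKM in siCNN3. Of the 13 transcripts, 6 were listed at 0 in a library or more, and an exact 0 can be a failed estimate.

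The main transcript of Irgm2 needs care. It was listed at 0, 15.3 and 3.77 FPKM in siNC, against 82.1, 78.3 and 21.05 FPKM in siCNN3, and in siNC replicate 1 a different transcript of Irgm2 was at 0.934 FPKM. Its annotated start, at 58199618, lies within the first exon of Igtp, and it shares 162 exon bases with each of the 3 Igtp transcripts, so reads there cannot be assigned to either gene by position. The other 2 transcripts of Irgm2 start at 58215008 and 58215028, just after the promoter printed above for Irgm2, and were at 21.4 and 14.7 FPKM in siCNN3 replicate 1.

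**Figure D4:**
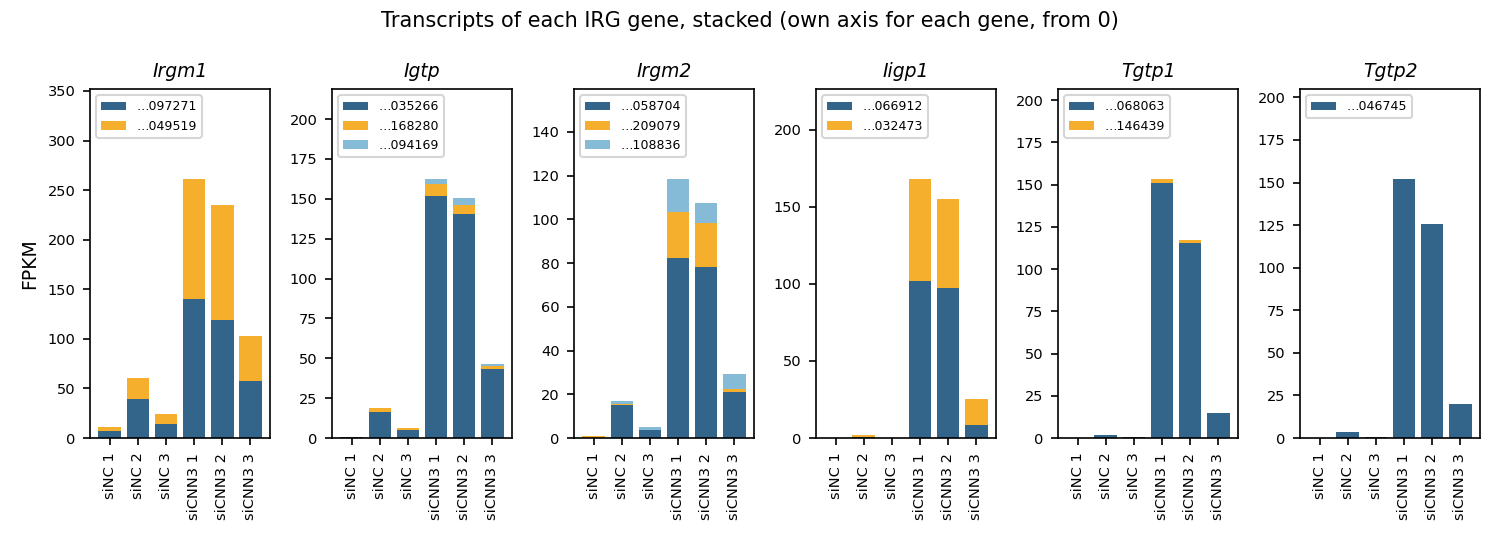
FPKM of the transcripts of each IRG gene, stacked, in each of the 6 libraries (bars start at 0, own axis for each gene, legends give the last digits of the Ensembl transcript identifier). The siCNN3 bars are above the siNC bars in every gene, and siCNN3 replicate 3 is the lowest of the siCNN3 bars.

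Of 10 further IRG genes looked up, 8 were listed and tested. Of these, 3 were called higher and 0 lower, compared with 1.73% of all tested genes called higher. Of the 8, 4 passed the filter only through siCNN3, their siNC means being under 0.5 FPKM (Gm4841, Gm4951, F830016B08Rik and Gm5431), so the count is no support for a direction. Of the 8, 0 were called without any one of the libraries other than siCNN3 replicate 3, where 16 to 151 of all genes were called higher, and 7 were called without that one, where 444 of all genes were. Gm4951 was at 0.175, 0.687 and 0.235 FPKM in siNC, against 35.1, 28.1 and 5.36 FPKM in siCNN3 (log2 fold change 3.804 ± 0.63, SE, limma, adjusted p = 0.0364). The paired genes 9930111J21Rik1 and 9930111J21Rik2, which lie among the Tgtp genes, were higher than Gm4951 in each siNC library and had log2 fold changes of 1.69 (adjusted p = 0.0332) and 1.70 (adjusted p = 0.0285). Gm12185, which has the same spacing of motifs as the genes above, was at 0.540, 1.45 and 0.951 FPKM in siNC, against 11.6, 9.50 and 2.66 FPKM in siCNN3, and did not pass (log2 fold change 2.01, limma, adjusted p = 0.0910). Irgq, a member with an atypical GTPase domain, had the opposite sign, at 5.35, 5.12 and 5.92 FPKM in siNC, against 2.99, 3.35 and 3.64 FPKM in siCNN3 (log2 fold change -0.58, limma, adjusted p = 0.106, not called).

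The guanylate-binding proteins, Mx and Gvin, interferon-inducible GTPases that are larger than the IRG proteins, gave 6 called higher and 0 lower of 11 tested, and 4 called higher with no filter. The share of all tested genes called higher was 1.73%, and 1.49% with no filter. Gbp4, Gbp10 and Gbp11 passed the filter only through siCNN3, and Gbp10 is among the 6. The 4 called with the largest change were Mx1, an inhibitor of influenza viruses (3.95, adjusted p = 0.0442), Gbp2b (3.71, adjusted p = 0.0154), Gbp2 (3.64, adjusted p = 0.00990) and Gbp5 (3.37, adjusted p = 0.0305). Gbp2 was at 4.38, 14.2 and 6.62 FPKM in siNC, against 122.8, 117 and 81.2 FPKM in siCNN3, so that siCNN3 replicate 3 was nearer to the other 2 than in the IRG genes. The count of 6 fell to 0 without siNC replicate 3 or siCNN3 replicate 2, to 1 without siCNN3 replicate 1 and to 2 without siNC replicate 1, and it was 5 without siNC replicate 2 and 9 without siCNN3 replicate 3. The calls over all genes in these fits, given above, fell and rose too.

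**Figure D5:**
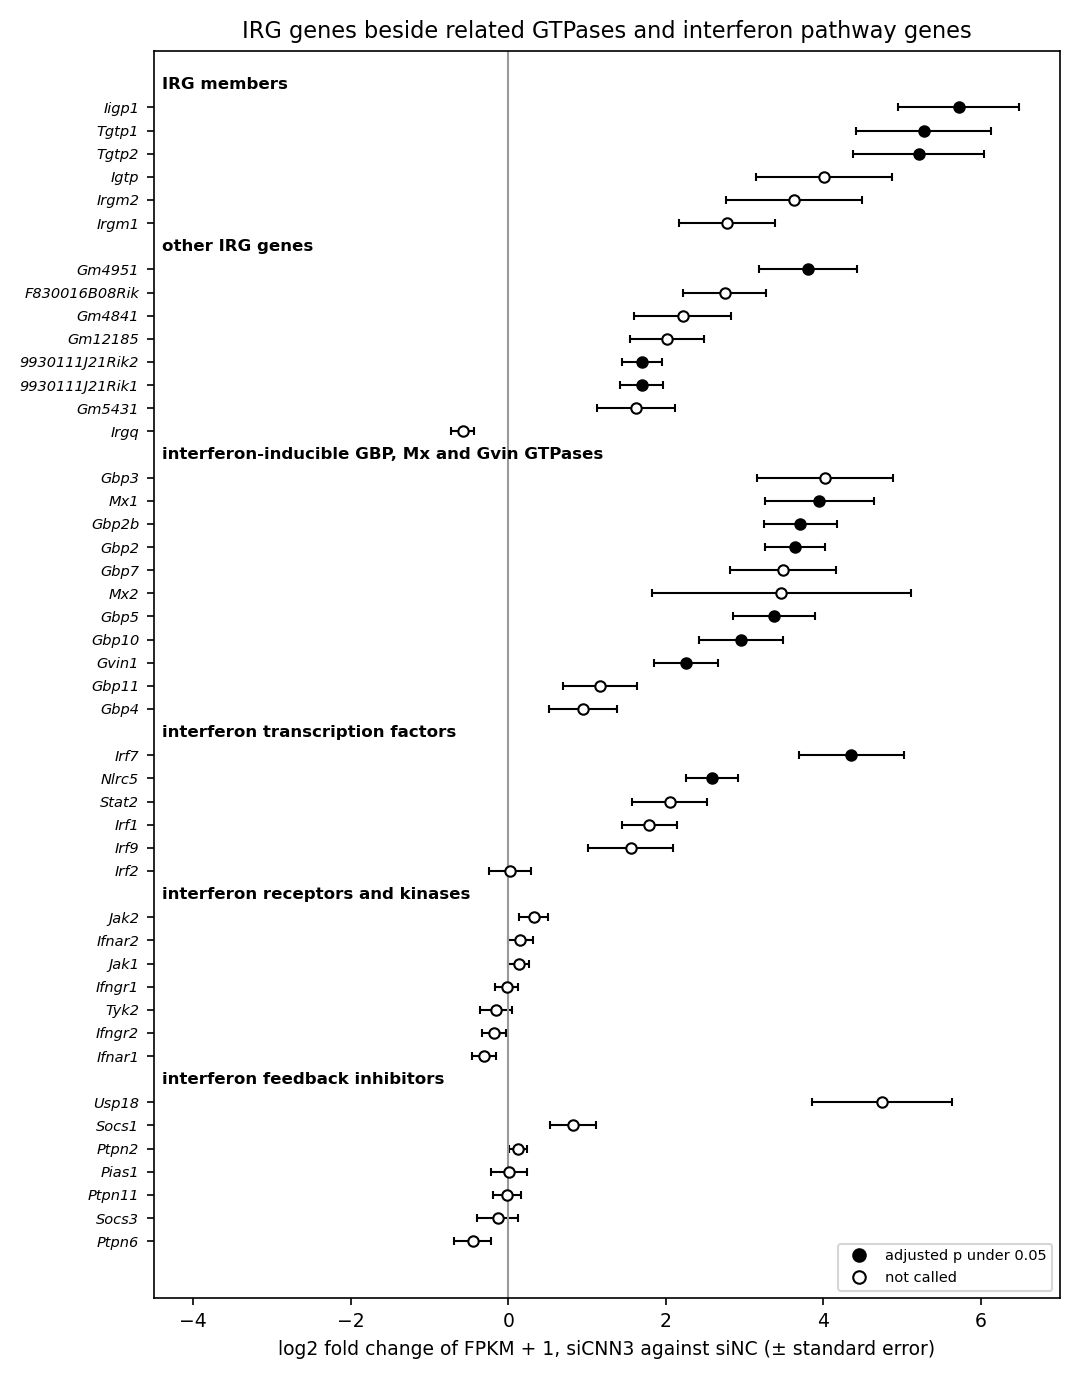
Log2 fold change of FPKM + 1, siCNN3 against siNC, with standard errors, for the IRG genes, the further IRG genes, other interferon-inducible GTPases and selected genes of interferon signalling, where filled symbols mark an adjusted p under 0.05. The 6 IRG genes lie between 2.78 and 5.72, whereas the receptors and kinases lie between -0.31 and 0.32.

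Genes that carry the interferon signal were described in the order ligand, receptor, transcription factor and inhibitor. Of 10 ligand genes, 3 were listed and 2 tested, with 0 called, and the 2 passed the filter only through siCNN3. Ifng, which encodes interferon gamma, was below the filter at 0.158 to 0.867 FPKM over the 6 libraries. Ifnb1, which encodes interferon beta, was at 0, 0.225 and 0 FPKM in siNC, against 6.60, 7.79 and 1.01 FPKM in siCNN3, with its lowest siCNN3 level in replicate 3 as for the IRG genes (log2 fold change 2.26, limma, adjusted p = 0.0976, not called). Ifna4, which encodes an interferon alpha, was listed at 0 in the 3 siNC libraries, against 2.08, 2.52 and 0.137 FPKM in siCNN3 (limma, adjusted p = 0.220, not called). Of the 7 receptors and JAK kinases, 0 were called in either direction, and their median log2 fold change was -0.02. The receptor chain Ifngr1 was expressed in every library, at 48.4, 50.1 and 57.4 FPKM in siNC, against 45.7, 48.3 and 60.3 FPKM in siCNN3.

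Of 7 transcription factors tested, 3 were called higher and 0 lower, compared with 1.73% of all tested genes called higher. They included Irf7, which amplifies the production of interferon alpha and beta (log2 fold change 4.36, adjusted p = 0.0305) and Nlrc5, the regulator of class I MHC genes (2.59, adjusted p = 0.0157), which passed the filter only through siCNN3. Irf1, which is known to bind ISRE sequences, was at 11.6, 21.7 and 8.19 FPKM in siNC, against 40.6, 39.8 and 62.9 FPKM in siCNN3 (log2 fold change 1.79, limma, adjusted p = 0.0586, not called), and unlike the IRG genes it was highest in siCNN3 replicate 3. The count of 3 was 0 without replicate 3 of siNC or replicate 1 or 2 of siCNN3, 1 without replicate 1 of siNC and 5 without replicate 2 of siNC. The calls over all genes in these fits, given above, moved as well. Of the 7 feedback inhibitors, 0 were called, with Usp18, which shuts off the receptor for interferon alpha and beta, at a log2 fold change of 4.74 (limma, adjusted p = 0.0525).

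The machinery that works with IRG proteins at the vacuole was examined as well. The autophagy proteins that attach ATG8 proteins to lipids, among them Atg3, Atg5, Atg7 and Atg16l1, are needed for the IRG proteins to find the vacuole, and 0 of their 12 genes, ATG8 genes included, were called in either direction, with a median log2 fold change of 0.08. Atg5 was at 14.0, 15.6 and 18.3 FPKM in siNC, against 20.7, 19.5 and 16.7 FPKM in siCNN3, so its groups overlapped (log2 fold change 0.24, limma, adjusted p = 0.490). Ubiquitin and its cargo receptors, which gather at the vacuole after the IRG proteins, had 2 of 9 genes called higher and 0 lower. They included Sqstm1, which encodes the cargo receptor p62, at 198, 243 and 204 FPKM in siNC and 413, 350.2 and 339 FPKM in siCNN3 (log2 fold change 0.77, limma, adjusted p = 0.0361). Both calls were lost without replicate 1 or 3 of siNC or replicate 1 or 2 of siCNN3, where 0 of the 9 were called. In these fits 16 to 70 of all genes were called higher, compared with 200 (1.73%) with all libraries.

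Markers of cell types were checked beside these results. Of 12 macrophage and myeloid markers, 3 were listed (Cd68, Lyz2 and Cd14), while the defining markers Ptprc, Adgre1 and Csf1r were not among the listed genes, and their summed level was 20.1 to 27.1 FPKM in siNC and 16.3 to 19.2 FPKM in siCNN3, with 0 called. None of the 9 lymphocyte markers and 1 of the 5 endothelial markers (Tek) was listed. Muscle markers summed to 162 to 188 FPKM in siNC and to 122 to 130 FPKM in siCNN3. Des made up most of these sums, at 113, 113 and 125 FPKM in siNC and 86.5, 84.3 and 103 FPKM in siCNN3. Of the 10 tested, 2 were called lower, Acta1 (skeletal actin, log2 fold change -2.12, adjusted p = 0.00473) and Myh3 (embryonic myosin, -1.38, adjusted p = 0.0193), of which Myh3 passed the filter only through siNC. Of the 10, 7 had every siCNN3 library below every siNC library. Chrna1 (-0.19) and Cdh15 (-0.11) changed little, and Myf5 had the opposite sign (0.88, limma, adjusted p = 0.238, not called). In such bulk libraries, fewer cells of a kind cannot be told apart from less RNA per cell, and the part of the lower muscle markers in the IRG result was not tested.

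The genes whose pattern was most like the mean of the 6 IRG genes were found from log2(FPKM + 1) relative to each gene's own siNC mean over the 6 libraries, by root mean square distance. They were Trim30a (0.335), Phf11b (0.362), Rsad2 (0.411), Gbp3 (0.463), Oas1a (0.485) and Cfb (0.542). The mean profile of the IRG genes was -1.06, 1.23 and -0.16 in siNC and 5.27, 5.08 and 2.96 in siCNN3, and that of Trim30a was -1.17, 1.18 and -0.01 in siNC and 4.71, 4.60 and 3.26 in siCNN3.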

How the data were processed

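The authors deposited FPKM of 24023 Ensembl transcripts for 3 siNC and 3 siCNN3 libraries. The submitters' processing notes list Bowtie 0.12.2 and the builds mm8 and mm10 without their roles. The program that made the FPKM, its annotation and the read numbers are not given in the sources used here. Identifiers were matched without version to GENCODE vM21 (GRCm38), which matched 23949 transcripts. Another 74, which were dropped, made up 0.159% to 0.220% of each library's FPKM. FPKM were summed by gene symbol, and library totals were 322621 to 355591 FPKM.

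Genes whose mean reached 0.5 FPKM were fitted as log2(FPKM + 1) with limma 3.58.1 in R 4.3.3, moderated with a mean-variance trend, and Benjamini-Hochberg adjustment over all 11593 genes. The threshold was 0.05. The fit was tested on simulated data. Of all genes, 200 were called higher and 39 lower, and at an unadjusted p under 0.05 there were 1152 and 712. Exact tests, ratios and motif counts used Python 3.11.15 with pandas 2.3.3, numpy 2.4.6 and scipy 1.17.1, figures matplotlib 3.10.9 and reading the R package data.table, version 1.17.8.

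The members and lists were chosen with earlier results of these data known. All members are named, and of each other list the genes past the threshold, or the 4 with the largest change where more passed, and genes whose role the text needs. A planned comparison of protein sequences was not run. Alternatives were other pseudocounts and filters, 2 scalings, a replicate block, each library left out, other variance models, Tgtp1 and Tgtp2 summed, each transcript on its own and transcripts with a 0 left out. The other settings of the ratios were chosen after seeing the data. A few genes of the lists are counted but not reported here by name.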

Additional observations from a re-analysis of the deposited data

How the results depend on the processing

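The direction of the 6 IRG genes was unchanged in all alternatives tried, and Irgm2 was not called in any of them. Of all results recomputed, 154 kept their side of the threshold or, for a count, stayed within 1.5 times its value, 41 counts moved by more, 20 calls were lost, 4 were gained and 0 reversed. Leaving out each library in turn gave 0 to 5 IRG genes called, and log2 fold changes of 5.25 to 6.59 for Iigp1, 4.67 to 6.30 for Tgtp1, 4.69 to 6.12 for Tgtp2, 3.14 to 4.81 for Igtp and 2.22 to 3.38 for Irgm1. It gave 0 to 7 further IRG genes, 0 to 9 GBP, Mx and Gvin genes, 0 to 5 transcription factors, 0 to 1 feedback inhibitors, 0 to 1 ATG8 conjugation genes and 0 to 3 ubiquitin genes called. With each gene on its own spread, 0 genes were called in all of the data, so that the IRG genes, the further IRG genes, the GTPases, the transcription factors and the ubiquitin genes each had 0, and Iigp1 (5.72), Tgtp1 (5.28) and Tgtp2 (5.21) lost their calls.

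With each transcript on its own, 1 IRG gene had a called transcript, and the main transcripts of Iigp1 (log2 fold change 5.22, adjusted p = 0.108), Tgtp1 (5.26, adjusted p = 0.0966) and Tgtp2 (5.21, adjusted p = 0.0907) were not called. Without transcripts listed at 0, 1 transcription factor and 2 GTPases were called. Without the mean-variance trend, 3 GTPases and 0 ubiquitin genes were called, and with a filter at 5 FPKM, 1 feedback inhibitor was. The cause of these moves was not tested.

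Deviations of same-numbered libraries from their group means correlated at -0.28, 0.31 and -0.02. With 3 libraries per group, these values cannot decide whether the replicate numbers pair the libraries. With the replicate block, Tgtp1 (5.28, adjusted p = 0.0522) was not called, and 0 further IRG genes, 0 transcription factors and 0 ubiquitin genes were, with 62 genes higher and 6 lower in all. Quantile normalization gave 199 genes higher and 93 lower, and median-of-ratios scaling 218 and 63. The depth is unknown, so the precision of siNC levels below 1 FPKM cannot be judged.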

Other observations

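Mx2, an antiviral GTPase of the same list as Mx1, did not share the order of libraries seen in the IRG genes, which was noticed after its values were seen. Its values were 0, 7.54 and 0.121 FPKM in replicates 1 to 3 of siNC, against 0.697, 111 and 66.9 FPKM in those of siCNN3. In siCNN3 replicate 1, where Mx1 was at 36.2 FPKM and all 6 IRG genes had their highest level, Mx2 was thus below its level in siNC replicate 2 (limma, log2 fold change 3.47 ± 1.65 (SE), adjusted p = 0.360).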
